A study of Mus musculus with 4 samples.

Results

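Protein kinase A (PKA) is the main kinase that cyclic AMP switches on, and its 8 genes described here code for 2 catalytic subunits (Prkaca, Prkacb), 4 regulatory subunits (Prkar1a, Prkar1b, Prkar2a, Prkar2b) and 2 peptide inhibitors (Pkia, Pkig). They were chosen by gene symbol, matched through GENCODE M21 to the gene identifiers of the deposited tables, and are 8 of 55573 genes listed there. The samples were primary mouse embryonic fibroblasts (MEFs), cells cultured straight from embryos, and the study asked how the kinase DYRK2 acts on Hedgehog signalling. SAG, a compound that activates the Hedgehog transducer Smoothened, was present in every culture at 100 nM for 24 h. Dyrk2-KO cells lacked Dyrk2 and were set against wild-type (WT) cells. The siDyrk2 cells carried a small interfering RNA against Dyrk2 and were set against siNeg cells, which carried a negative control siRNA. Both siRNA cultures were of wild-type fibroblasts. The siNeg cells were also set against the WT cells, which sets the siRNA control beside cells for which the labels list no siRNA. The labels do not say which exons the knockout removed, which siRNA sequence was used or whether the cultures came from separate or pooled embryos. Cells without SAG were not analysed here. Each group is 1 library, so no difference below has a replicate check and none was tested. Intervals after a fold or share are 95% intervals that cover counting error only.

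At rest, PKA is an assembly of catalytic subunits held inactive by a dimer of regulatory subunits, and cyclic AMP releases the catalytic subunits by binding the regulatory ones. Type I regulatory subunits sit largely in the cytosol, type II regulatory subunits are tethered by A-kinase anchoring proteins, and PKI inhibitor peptides block free catalytic subunits and carry them out of the nucleus. In fibroblasts PKA is known as a brake on the Hedgehog pathway: it phosphorylates the transcription factors GLI2 and GLI3 and so prepares them for GSK3 and casein kinase 1, after which they are trimmed to repressors or degraded, and the ciliary receptor GPR161 keeps cyclic AMP high until the pathway is switched on.

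Depth, in units of 1000000 assigned fragments, was 21.9 in the Dyrk2-KO library, 23.9 in the WT library, 21.5 in the siDyrk2 library and 19.98 in the siNeg library. In at least 1 of them, 12817 genes reached 1 FPKM (fragments per kilobase of listed gene length per 1000000 assigned fragments). The labels held for the targeted gene: Dyrk2 was at 0.57 FPKM in Dyrk2-KO cells against 6.59 in WT cells, and at 0.81 in siDyrk2 cells against 7.06 in siNeg cells. Gli1, a direct Hedgehog target, was at 0.24 FPKM in Dyrk2-KO cells against 28.81 in WT cells, and at 2.25 in siDyrk2 cells against 30.17 in siNeg cells. All 12 fibroblast markers listed were present in each library. They summed to 9176 FPKM in Dyrk2-KO cells against 8533 in WT cells, and to 7000 in siDyrk2 cells against 8280 in siNeg cells. By 1.5-fold or more in FPKM + 1, 2 were above and 1 below WT in Dyrk2-KO cells, where 6.64% of all genes were apart. In siDyrk2 cells 2 were above and 0 below siNeg by that margin, where 6.51% of all genes were apart. The 11 macrophage markers summed to 482 FPKM in Dyrk2-KO cells against 233 in WT cells, and to 327 in siDyrk2 cells against 263 in siNeg cells. The 24 genes of the G2 and M phases of the cell cycle summed to 79.2 FPKM in Dyrk2-KO cells against 208 in WT cells, and to 278 in siDyrk2 cells against 302 in siNeg cells. Endothelial, muscle and epithelial marker lists each summed to at most 5.51 FPKM in any library. The part of these shifts in the PKA values was not tested, and in bulk RNA fewer cells of a type cannot be told apart from less RNA per cell.

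All 8 genes were above 1 FPKM in all 4 libraries. Prkar1a was the highest of them in each library and Prkaca the next. Prkacb was the third in the Dyrk2-KO and WT libraries, the sixth in the siDyrk2 library and the fourth in the siNeg library. The lowest member was Pkig in the Dyrk2-KO and WT libraries and Prkar1b in the siDyrk2 and siNeg libraries, although Pkig and Prkar1b did not differ beyond counting error in either siRNA library. Prkar2b and Prkar1b also lay within counting error of each other in the Dyrk2-KO and WT libraries, as did Prkar2a and Pkia in the Dyrk2-KO library. Each other pair of neighbours in these orders was apart beyond counting error.

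**Figure D1:**
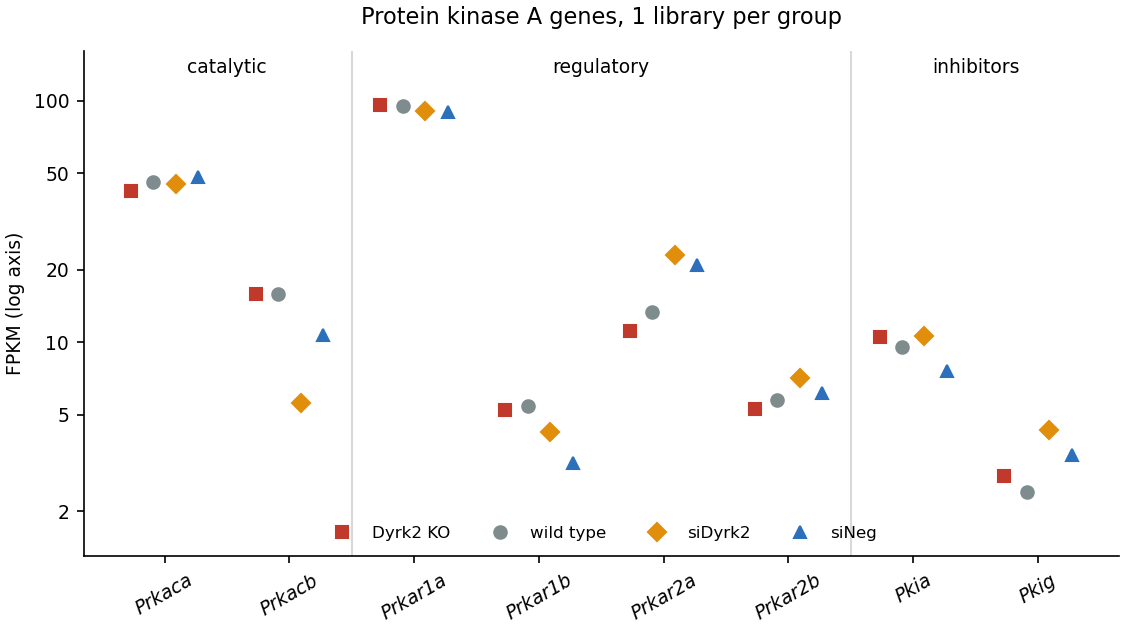
Level in FPKM on a log axis of the 8 PKA genes in each of the 4 libraries, 1 point per library. Prkar1a lies between 90.1 and 95.7 FPKM in all 4, whereas Prkacb runs between 5.62 FPKM in siDyrk2 cells and 15.8 FPKM in WT cells.

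The catalytic subunits Prkaca and Prkacb code for closely related kinases, shown here over the coding stretch of the activation loop, whose threonine must be phosphorylated for the kinase to work. Both stretches are coding-strand DNA from GENCODE M21 on GRCm38, lie in exon 7 of the transcript used, and capitals mark the 5 of 33 bases that differ. The Prkaca stretch is at chr8:83990681-83990713 on the plus strand and the Prkacb stretch at chr3:146746624-146746656 on the minus strand.
Prkaca: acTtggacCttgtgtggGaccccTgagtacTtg
Prkacb: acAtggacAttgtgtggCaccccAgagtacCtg
Of the 50-base words of Prkaca exons 0.328% also occur in another gene, the pseudogene Prkaca-ps1, which is listed at 0 FPKM in all 4 libraries. No word of the Prkacb exons occurs in another gene.

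Prkaca (ENSMUSG00000005469, chr8:83972993-83996443), the catalytic subunit that most tissues use, was at 42.15 FPKM in Dyrk2-KO cells against 46.11 FPKM in WT cells, and at 45.23 FPKM in siDyrk2 cells against 48.30 FPKM in siNeg cells. The highest of these 4 levels was 1.15 times the lowest. Its fold was 0.914 (0.864 to 0.967) for Dyrk2-KO over WT, 0.936 (0.885 to 0.991) for siDyrk2 over siNeg and 1.05 (0.991 to 1.11) for siNeg over WT. Both cell populations with less Dyrk2 thus had slightly less Prkaca RNA than their own controls, by margins that counting error does not cover and that no replicate checks. As log2 ratios of FPKM + 1 these margins were -0.13 and -0.09. The median size of such ratios over all genes was 0.13 and 0.16, so shifts of this size were common.

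Prkacb (ENSMUSG00000005034, chr3:146729574-146812990), the second catalytic subunit, varied most of the 8 genes across the libraries, the highest level being 2.81 times the lowest. It was at 15.77 FPKM in Dyrk2-KO cells against 15.78 FPKM in WT cells, from 3026 and 3312 fragments. It was at 5.62 FPKM in siDyrk2 cells against 10.72 FPKM in siNeg cells, from 1059 and 1879 fragments. The knockout and wild-type libraries were level with each other, the siNeg library lay below both and the siDyrk2 library lay lowest.

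The Prkacb fold was 0.999 (0.951 to 1.05) for Dyrk2-KO over WT. In siDyrk2 cells it was 1.91-fold (1.77 to 2.06) lower than in siNeg cells, a log2 ratio of -0.82 on the log2(FPKM + 1) scale, which was rank 154 from the lowest of the 12817 genes. In siNeg cells it was 1.47-fold (1.39 to 1.56) lower than in WT cells, a log2 ratio of -0.52 and rank 407 from the lowest. The log2 fold of the knockout comparison exceeded that of the siRNA comparison by 0.93 (0.80 to 1.06), a gap whose size between replicate cultures was not tested. The annotation gives Prkacb 8 transcripts, 6 of them coding, and the deposited value is 1 figure per gene, so a shift between isoforms is not visible in it.

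The regulatory subunits and the inhibitors all occupy the catalytic cleft with a stretch that resembles a PKA substrate, and that stretch shows how they differ. Type II subunits carry a serine at the position where a substrate is phosphorylated, so that the kinase phosphorylates them, while type I subunits and PKI peptides carry alanine or glycine there and act as pseudosubstrates. The coding DNA of these stretches, 27 bases each on the coding strand from GENCODE M21 on GRCm38, is given with the codon of that position in capitals.
Prkar1a: cgacggcgccgaggtGCTatcagtgct
Prkar1b: cgtcgccggcggggcGGTgtgagtgct
Prkar2a: tttactagacgagtaTCAgtctgtgca
Prkar2b: ttcacaaggcgtgccTCGgtctgtgca
Pkia: acaggtagaagaaatGCAatacatgat
Pkig: acaggccgtcggaatGCAgtccctgac
The capitals encode alanine in Prkar1a, Pkia and Pkig, glycine in Prkar1b and serine in Prkar2a and Prkar2b. The Prkar1a stretch lies on the plus strand at chr11:109660101-109660127, that of Pkia on the plus strand at chr3:7437413-7437439 and that of Pkig on the plus strand at chr2:163721199-163721225. The Prkar1b stretch lies on the minus strand at chr5:139108526-139108552. Those of Prkar2a, on the plus strand, and Prkar2b, on the minus strand, each span exons 2 and 3.

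Prkar1a (ENSMUSG00000020612, chr11:109649405-109669656), the widely used type I regulatory subunit, was at 95.74 FPKM in Dyrk2-KO cells against 94.78 FPKM in WT cells, and at 90.67 FPKM in siDyrk2 cells against 90.06 FPKM in siNeg cells. It varied least of the 8 genes, the highest level being 1.06 times the lowest. Its fold was 1.01 (0.982 to 1.04) for Dyrk2-KO over WT and 1.01 (0.976 to 1.04) for siDyrk2 over siNeg, both intervals including 1, and 0.950 (0.922 to 0.979) for siNeg over WT.

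Prkar1b (ENSMUSG00000025855, chr5:139017306-139150001), a type I subunit best known from neurons, was at 5.26 FPKM in Dyrk2-KO cells against 5.44 FPKM in WT cells, and at 4.27 FPKM in siDyrk2 cells against 3.17 FPKM in siNeg cells. Both siRNA libraries lay below both others. The fold was 0.967 (0.848 to 1.10) for Dyrk2-KO over WT and 1.35 (1.14 to 1.59) for siDyrk2 over siNeg. In siNeg cells Prkar1b was 1.72-fold (1.47 to 2.01) lower than in WT cells, at rank 259 from the lowest of the 12817 genes. Its exons share 7.79% of their 50-base words with the gene Gm15672, at 0.37 FPKM in Dyrk2-KO, 0.31 in WT, 0.07 in siDyrk2 and 0.15 in siNeg cells, so some of its fragments may be assigned uncertainly. The 10 neural genes listed as markers summed to 10.6 FPKM in Dyrk2-KO cells against 14.9 in WT cells, and to 25.3 in siDyrk2 cells against 15.9 in siNeg cells, with Rbfox3, Snap25, Gfap, Nefl and Elavl4 below 0.1 FPKM throughout. The higher sum in siDyrk2 cells lay chiefly in Tubb3, a tubulin, at 18.57 FPKM in siDyrk2 cells against 8.95 FPKM in siNeg cells, while Map2 was at 4.87 FPKM in siDyrk2 cells against 5.0 FPKM in siNeg cells.

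Prkar2a (ENSMUSG00000032601, chr9:108689314-108750436), the widely expressed type II regulatory subunit, was at 11.12 FPKM in Dyrk2-KO cells against 13.36 FPKM in WT cells. It was at 22.86 FPKM in siDyrk2 cells against 20.81 FPKM in siNeg cells. The siRNA libraries thus lay above the other two whether or not Dyrk2 was targeted, and the highest level was 2.06 times the lowest. The fold was 0.832 (0.778 to 0.889) for Dyrk2-KO over WT, 1.10 (1.04 to 1.16) for siDyrk2 over siNeg and 1.56 (1.47 to 1.65) for siNeg over WT. That last value put Prkar2a at rank 163 from the highest of the 12817 genes.

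Prkar2b (ENSMUSG00000002997, chr12:31958476-32061296), the type II subunit abundant in brain and fat, was at 5.27 FPKM in Dyrk2-KO cells against 5.79 FPKM in WT cells, and at 7.09 FPKM in siDyrk2 cells against 6.15 FPKM in siNeg cells. Its fold was 0.910 (0.798 to 1.04) for Dyrk2-KO over WT, 1.15 (1.02 to 1.31) for siDyrk2 over siNeg and 1.06 (0.934 to 1.21) for siNeg over WT. Only the siRNA comparison left 1 outside the interval. The adipocyte markers summed to 95.7 FPKM in Dyrk2-KO cells against 60.3 in WT cells, and to 67.1 in siDyrk2 cells against 57.1 in siNeg cells, with Adipoq, Plin1, Lep and Cidec below 0.1 FPKM throughout. Most of these sums was Lpl, the lipoprotein lipase gene, at 61.27 FPKM in Dyrk2-KO cells against 41.31 FPKM in WT cells, and at 45.76 FPKM in siDyrk2 cells against 40.65 FPKM in siNeg cells.

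Pkia (ENSMUSG00000027499, chr3:7366669-7445366) codes for the PKI peptide known from muscle and brain, and it was the higher of the 2 inhibitors in each library. It was at 10.47 FPKM in Dyrk2-KO cells against 9.59 FPKM in WT cells, and at 10.61 FPKM in siDyrk2 cells against 7.59 FPKM in siNeg cells. The siNeg library stood lowest, below the WT library. The fold was 1.09 (0.991 to 1.20) for Dyrk2-KO over WT, 1.40 (1.26 to 1.56) for siDyrk2 over siNeg and 0.791 (0.710 to 0.881) for siNeg over WT.

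Pkig (ENSMUSG00000035268, chr2:163658386-163726158), a PKI form found in many tissues, was at 2.80 FPKM in Dyrk2-KO cells against 2.41 FPKM in WT cells, and at 4.32 FPKM in siDyrk2 cells against 3.40 FPKM in siNeg cells. These values rest on 230 to 370 fragments, among the fewest of the 8 genes. The fold was 1.16 (0.965 to 1.40) for Dyrk2-KO over WT, 1.27 (1.08 to 1.49) for siDyrk2 over siNeg and 1.41 (1.18 to 1.69) for siNeg over WT. The remaining inhibitor gene of the family, Pkib, was near the floor, with 28 fragments in Dyrk2-KO cells, 14 in WT cells, 23 in siDyrk2 cells and 12 in siNeg cells. Prkx, a kinase related to the catalytic subunits, was at 2.70 FPKM in Dyrk2-KO cells against 2.51 FPKM in WT cells, and at 4.72 FPKM in siDyrk2 cells against 3.36 FPKM in siNeg cells.

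**Figure D2:**
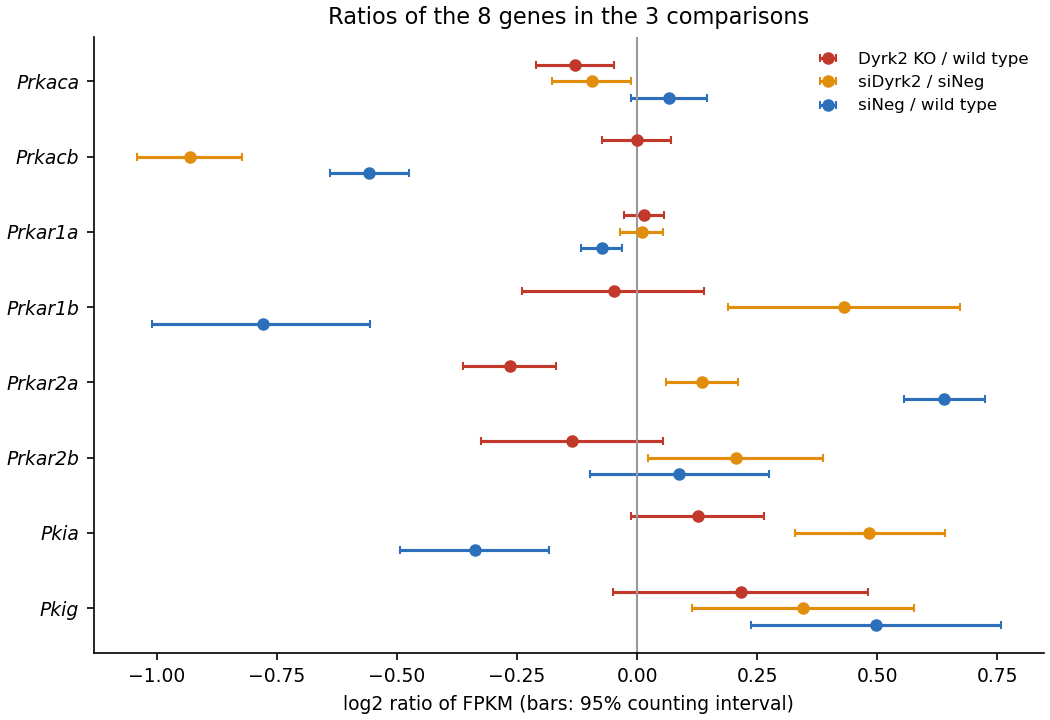
Log2 ratio of FPKM for the 8 PKA genes in the 3 comparisons, with 95% counting intervals as bars and a line at 0. The siDyrk2 over siNeg point of Prkacb lies far below 0, and for siNeg over WT Prkar1b and Prkacb lie below 0 and Prkar2a above it.

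The PKA genes differed between Dyrk2-KO and WT cells about as much as genes in general. None of the 8 was 1.5-fold or more apart in FPKM + 1 between Dyrk2-KO and WT cells, where 6.64% of the 12817 genes were, and none was 2-fold apart, where 1.78% were. With 8 genes, a count of 0 is near that background and is no result about them. On the log2(FPKM + 1) scale the 8 ratios ran from -0.24 for Prkar2a to 0.16 for Pkig, with 3 above 0 and 5 below. Their median was -0.02, the same as that of all genes, and 74.4% of all genes had a ratio smaller in size than that of Prkar2a.

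Between siDyrk2 and siNeg cells 1 of the 8 genes, Prkacb, was 1.5-fold or more apart, where 6.51% of all genes were, and none was 2-fold apart, where 1.54% were. The ratios ran from -0.82 for Prkacb to 0.43 for Pkia, with 6 above 0 and the 2 catalytic subunits below 0. Their median was 0.15, against 0.02 over all genes.

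Between siNeg and WT cells 2 of the 8 genes were 1.5-fold or more apart, Prkar2a above and Prkar1b below, where 3.79% of all genes were, and none was 2-fold apart, where 0.928% were. The ratios ran from -0.63 for Prkar1b to 0.60 for Prkar2a, with 4 on each side of 0. The median size of these ratios, whatever their sign, was 0.33 for the PKA genes against 0.14 over all genes. In the knockout comparison the corresponding sizes were 0.12 for the PKA genes and 0.13 over all genes, and in the siRNA comparison 0.23 and 0.16. The siNeg library enters both siRNA-related comparisons and the WT library both comparisons with WT cells, so the 3 sets of ratios are not independent of each other.

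**Figure D3:**
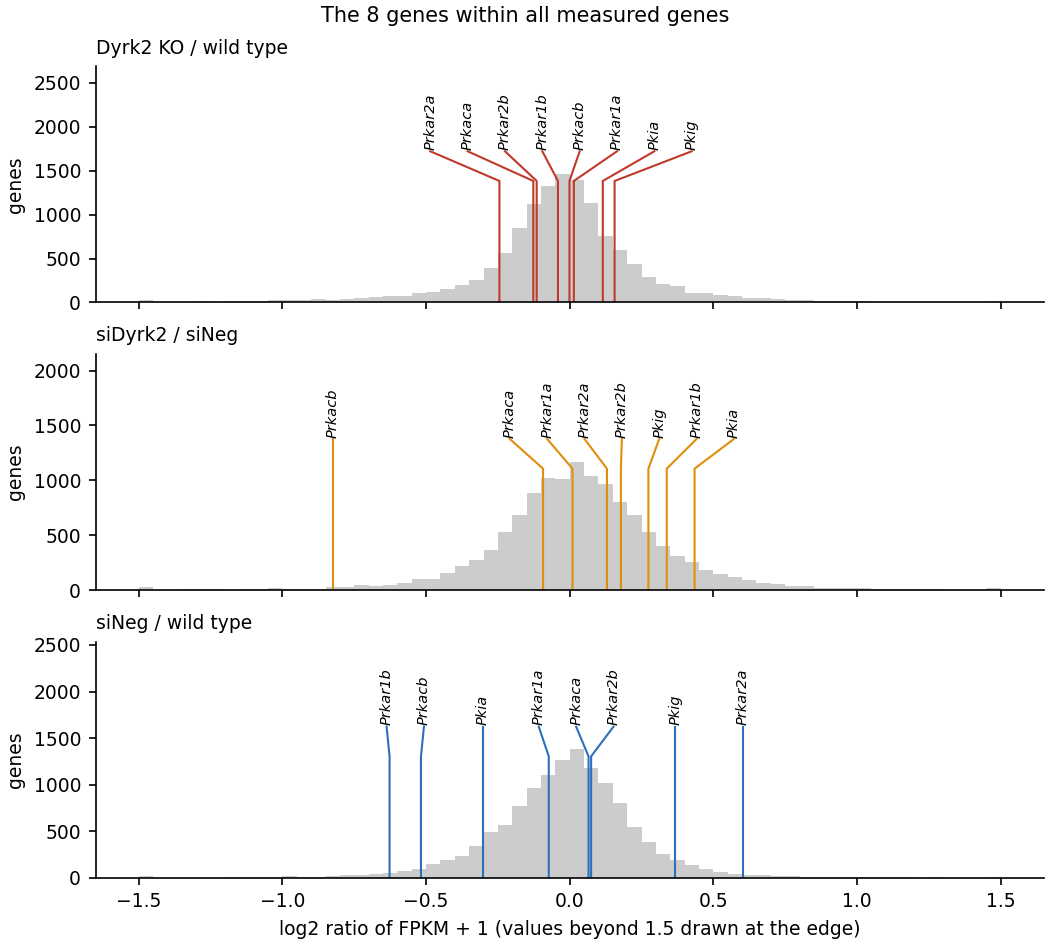
Histograms of the log2 ratio of FPKM + 1 over the 12817 genes for the 3 comparisons, with the 8 PKA genes marked and values beyond 1.5 placed at the edge. In the Dyrk2-KO over WT panel all marks fall between -0.24 and 0.16, in the siDyrk2 over siNeg panel Prkacb stands at -0.82, and in the siNeg over WT panel the marks run from -0.63 to 0.60.

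Summed by role, the family kept nearly the same total in all libraries while its makeup differed. The 8 genes together held 188.6 FPKM in Dyrk2-KO cells against 193.3 FPKM in WT cells, and 190.7 FPKM in siDyrk2 cells against 190.2 FPKM in siNeg cells. Prkar1a, the gene that varied least, was the largest part of each total, at 90.06 to 95.74 FPKM, and so weighs most in its steadiness. Catalytic RNA summed to 57.9 FPKM in Dyrk2-KO cells against 61.9 FPKM in WT cells, and to 50.9 FPKM in siDyrk2 cells against 59.0 FPKM in siNeg cells. Its fold was 0.936 (0.897 to 0.977) for Dyrk2-KO over WT and 0.862 (0.820 to 0.905) for siDyrk2 over siNeg. Catalytic RNA thus lay below the control in both. For siNeg over WT, where Dyrk2 was not targeted, the fold was 0.954 (0.912 to 0.997), also below 1.

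Regulatory RNA summed to 117.4 FPKM in Dyrk2-KO cells against 119.4 FPKM in WT cells, and to 124.9 FPKM in siDyrk2 cells against 120.2 FPKM in siNeg cells. Inhibitor RNA summed to 13.3 FPKM in Dyrk2-KO cells against 12.0 FPKM in WT cells, and to 14.9 FPKM in siDyrk2 cells against 11.0 FPKM in siNeg cells. Inhibitor RNA was thus above the control in both comparisons. Its fold was 1.11 (1.02 to 1.20) for Dyrk2-KO over WT and 1.36 (1.24 to 1.48) for siDyrk2 over siNeg. For siNeg over WT the inhibitor fold was 0.916, with an interval that included 1, and the siNeg library had the lowest inhibitor sum. For the regulatory sum the interval included 1 for Dyrk2-KO over WT, at 0.983 (0.959 to 1.01), and lay just above it for siDyrk2 over siNeg, at 1.04 (1.01 to 1.07).

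The makeup of the catalytic pair followed Prkacb. Prkacb made up 27.2% (26.2 to 28.3) of catalytic FPKM in Dyrk2-KO cells against 25.5% (24.5 to 26.5) in WT cells, and 11.1% (10.4 to 11.8) in siDyrk2 cells against 18.2% (17.3 to 19.1) in siNeg cells. The listed length, which equals the union of all annotated exons, is 8772 bases for Prkacb and 2488 bases for Prkaca. Levels compared between genes depend on that length. Without division by length the shares were 56.9% in Dyrk2-KO cells against 54.7% in WT cells, and 30.5% in siDyrk2 cells against 43.9% in siNeg cells, with the libraries in the same order. Within the regulatory subunits, type II made up 14.0% in Dyrk2-KO cells against 16.0% in WT cells, and 24.0% in siDyrk2 cells against 22.4% in siNeg cells. The type II sum was 1.41-fold (1.33 to 1.49) higher in siNeg than in WT cells, a larger margin than the 0.856 (0.805 to 0.910) of Dyrk2-KO over WT or the 1.11 (1.06 to 1.17) of siDyrk2 over siNeg.

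Within each library, regulatory FPKM was 2.03 times (1.95 to 2.10) catalytic FPKM in Dyrk2-KO cells against 1.93 times (1.86 to 2.00) in WT cells, and 2.46 times (2.36 to 2.56) in siDyrk2 cells against 2.04 times (1.96 to 2.12) in siNeg cells. Inhibitor FPKM was 0.229 (0.214 to 0.245) of catalytic FPKM in Dyrk2-KO cells against 0.194 (0.181 to 0.207) in WT cells, and 0.294 (0.275 to 0.314) in siDyrk2 cells against 0.186 (0.173 to 0.201) in siNeg cells. The siDyrk2 library had the highest of both ratios. These are ratios of RNA levels per length and say nothing of protein amounts.

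**Figure D4:**
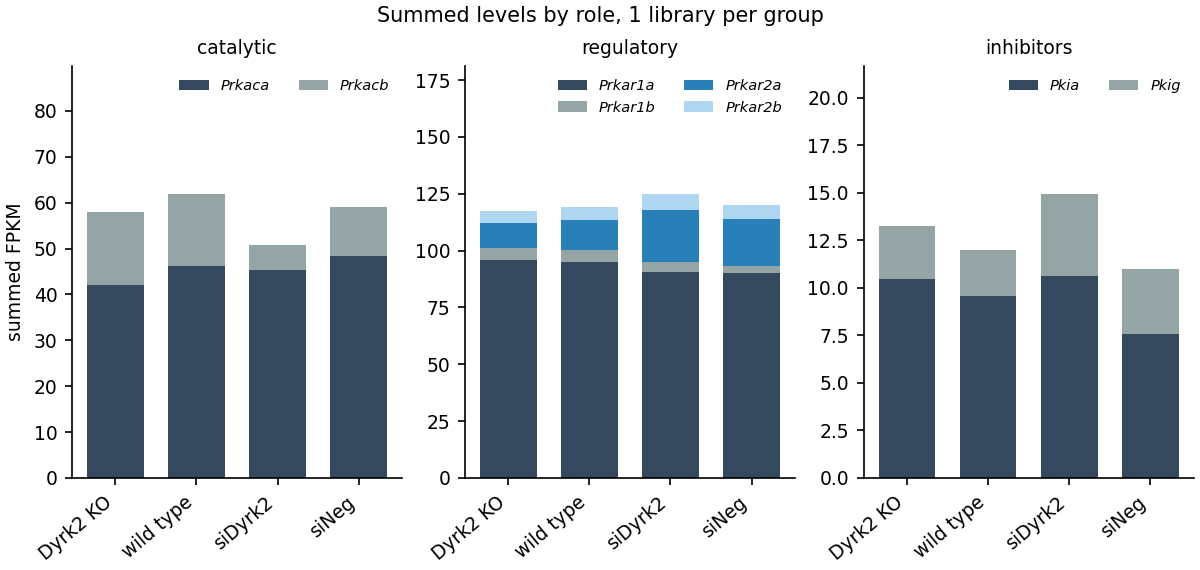
Bars of FPKM in each library, from 0 and stacked by gene, with separate panels for catalytic subunits, regulatory subunits and inhibitors. The catalytic sum is smallest in siDyrk2 cells at 50.9 FPKM, where the regulatory sum is largest at 124.9 FPKM.

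The genes whose 4-library pattern lay nearest to that of Prkacb, among 7484 protein-coding genes with at least 5 FPKM in a library, were Ntn1, Penk and Arsb. Likeness was measured as the root mean square distance between log2(FPKM + 1) levels centred on each gene, over 4 libraries, with 0 for identical patterns. Ntn1, the guidance factor netrin 1, was nearest at 0.0744, with 15.46 FPKM in Dyrk2-KO cells against 15.44 FPKM in WT cells, and 5.76 FPKM in siDyrk2 cells against 12.04 FPKM in siNeg cells. Penk, the precursor of enkephalin peptides, lay at 0.0933 and Arsb, a lysosomal sulfatase, at 0.0946. For Prkar2a the nearest was Nuak1, a kinase of the AMPK-related family, at 0.0471, with 11.18 FPKM in Dyrk2-KO cells against 13.09 FPKM in WT cells, and 21.68 FPKM in siDyrk2 cells against 19.10 FPKM in siNeg cells. For Prkar1b the nearest were Gnb5, Npr2 and Sertad2, between 0.0319 and 0.0338. With 4 libraries such distances describe likeness only.

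The genes around PKA in the cyclic AMP pathway were read from lists, with ratios again on the log2(FPKM + 1) scale. Over all 12817 genes, 6.64% were 1.5-fold or more apart for Dyrk2-KO over WT and 6.51% for siDyrk2 over siNeg. In lists this short, a count near those shares is no result about the list. Upstream, 7 of 10 adenylyl cyclases, the enzymes that make cyclic AMP, were measured. Adcy7 was at 4.62 FPKM in Dyrk2-KO cells against 9.44 FPKM in WT cells, and at 6.83 FPKM in siDyrk2 cells against 10.90 FPKM in siNeg cells. It was the 1 measured cyclase beyond 1.5-fold in both comparisons. Adcy6, the most abundant cyclase, was at 24.83 FPKM in Dyrk2-KO cells against 23.26 FPKM in WT cells, and at 20.61 FPKM in siDyrk2 cells against 15.61 FPKM in siNeg cells.

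Gnas, which codes for the stimulatory G protein alpha subunit, was at 182.67 FPKM in Dyrk2-KO cells against 203.11 FPKM in WT cells, and at 158.88 FPKM in siDyrk2 cells against 195.31 FPKM in siNeg cells. All 5 measured stimulatory and inhibitory alpha subunits lay below WT in Dyrk2-KO cells, with a median of -0.14, while 4 of 5 lay above siNeg in siDyrk2 cells, Gnas being the exception. For siNeg over WT, where Dyrk2 was not targeted, 1 lay above and 4 below. Over all genes the median size of the ratio, whatever its sign, was 0.13 for Dyrk2-KO over WT and 0.16 for siDyrk2 over siNeg. With 5 genes, these counts by sign are a description only. Gnai1, an inhibitory alpha subunit, was at 5.98 FPKM in Dyrk2-KO cells against 6.71 FPKM in WT cells, and at 6.49 FPKM in siDyrk2 cells against 4.79 FPKM in siNeg cells. Gpr161, the ciliary receptor that raises cyclic AMP, was at 5.49 FPKM in Dyrk2-KO cells against 5.90 FPKM in WT cells, and at 5.38 FPKM in siDyrk2 cells against 5.72 FPKM in siNeg cells.

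Of the 10 measured receptors and receptor partners coupled to the stimulatory G protein, 5 were above and 5 below WT in Dyrk2-KO cells, and 3 were above and 7 below siNeg in siDyrk2 cells. Ramp3, a partner of the calcitonin-family receptors, was beyond 1.5-fold in the knockout comparison, at 4.04 FPKM in Dyrk2-KO cells against 1.64 FPKM in WT cells, and at 1.86 FPKM in siDyrk2 cells against 2.21 FPKM in siNeg cells. Ptger4, a prostaglandin E2 receptor, lay below its control in both comparisons, at 3.23 FPKM in Dyrk2-KO cells against 4.61 FPKM in WT cells, and at 2.79 FPKM in siDyrk2 cells against 4.35 FPKM in siNeg cells. Of 10 measured phosphodiesterases, which degrade cyclic AMP, Pde3a alone was beyond 1.5-fold in the knockout comparison, at 2.66 FPKM in Dyrk2-KO cells against 4.55 FPKM in WT cells, and none was in the siRNA comparison.

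None of the 21 measured A-kinase anchoring proteins, which tether type II subunits in the main, was beyond 1.5-fold in either comparison, with a median of -0.02 for Dyrk2-KO over WT and -0.04 for siDyrk2 over siNeg. Akap12, an abundant scaffold for PKA, was at 140.10 FPKM in Dyrk2-KO cells against 135.75 FPKM in WT cells, and at 147.72 FPKM in siDyrk2 cells against 119.68 FPKM in siNeg cells. Rapgef3 (EPAC1), a cyclic AMP target outside PKA, was at 4.23 FPKM in Dyrk2-KO cells against 3.60 FPKM in WT cells, and at 2.92 FPKM in siDyrk2 cells against 3.36 FPKM in siNeg cells. Downstream, the 10 measured CREB family and coactivator genes had a median of 0.02 for Dyrk2-KO over WT and -0.10 for siDyrk2 over siNeg, none beyond 1.5-fold.

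Of the 14 measured cyclic AMP response genes, 7 were above and 7 below WT in Dyrk2-KO cells, and 9 were above and 5 below siNeg in siDyrk2 cells. For siNeg over WT, where Dyrk2 was not targeted, 3 were above and 11 below, with a median of -0.15. In that comparison 2 of them were lower by 1.5-fold or more, where 3.79% of all genes were that far apart in either direction. Dusp1, a MAP kinase phosphatase that cyclic AMP can induce, was the 1 of them beyond 1.5-fold in the siRNA comparison, at 7.60 FPKM in siDyrk2 cells against 4.02 FPKM in siNeg cells, and it was at 7.68 FPKM in Dyrk2-KO cells against 6.20 FPKM in WT cells. Cebpb, a transcription factor gene that cyclic AMP can induce, was at 46.23 FPKM in Dyrk2-KO cells against 33.18 FPKM in WT cells, and at 34.47 FPKM in siDyrk2 cells against 29.72 FPKM in siNeg cells. Pde4b and Id1, also on this list, lay below their controls in both comparisons. Pde4b was at 1.89 FPKM in Dyrk2-KO cells against 3.1 in WT cells, and at 2.28 in siDyrk2 cells against 2.61 in siNeg cells. Id1 was at 13.24 FPKM in Dyrk2-KO cells against 14.16 in WT cells, and at 13.01 in siDyrk2 cells against 18.55 in siNeg cells.

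The 8 genes of GSK3 and casein kinase 1, which act on GLI proteins after PKA, had a median of -0.07 for Dyrk2-KO over WT and -0.05 for siDyrk2 over siNeg, none beyond 1.5-fold. Gsk3b was the furthest from its control in the siRNA comparison, at 11.22 FPKM in siDyrk2 cells against 14.77 FPKM in siNeg cells, and it was at 17.23 FPKM in Dyrk2-KO cells against 18.46 FPKM in WT cells. Of 12 measured phosphatase subunits, Ppp2cb, a catalytic subunit of PP2A, was beyond 1.5-fold in the siRNA comparison, at 41.91 FPKM in siDyrk2 cells against 69.92 FPKM in siNeg cells, and it was at 67.60 FPKM in Dyrk2-KO cells against 65.41 FPKM in WT cells.

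**Figure D5:**
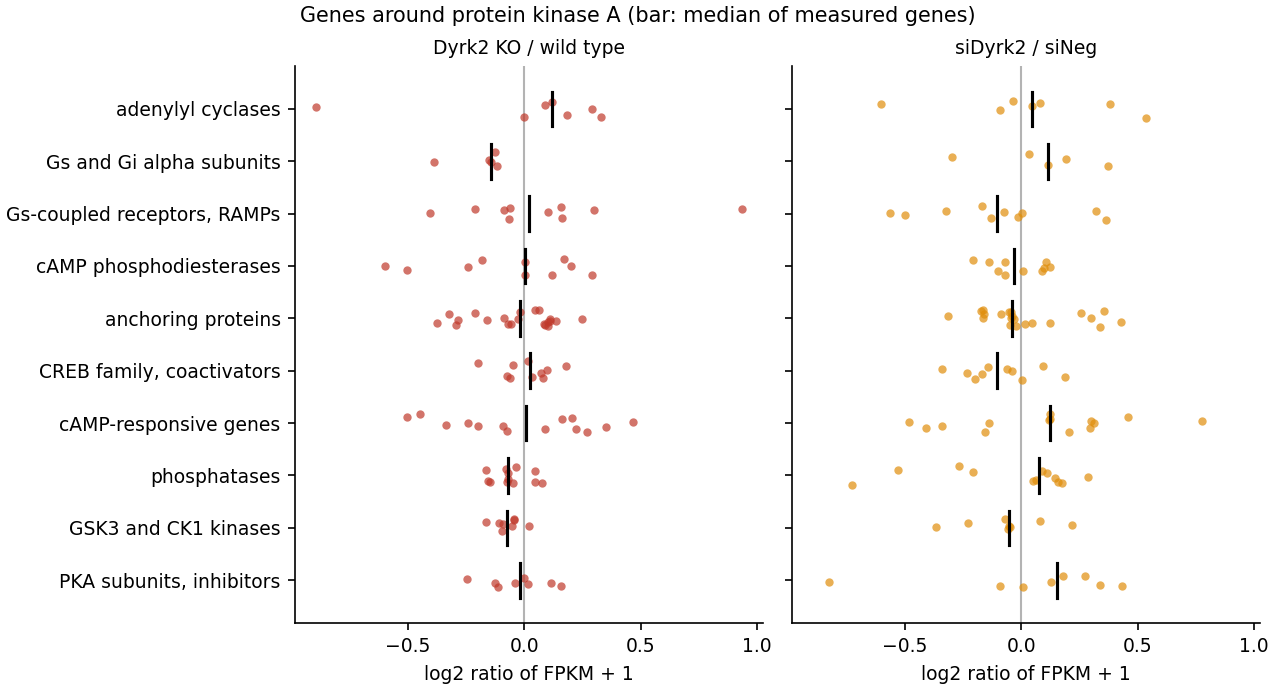
Log2 ratio of FPKM + 1 for the measured genes of 10 lists around PKA, 1 point per gene, for Dyrk2-KO over WT and for siDyrk2 over siNeg, with a bar at each median. The medians lie close to 0, between -0.14 and 0.15, and single genes such as Adcy7 and Ppp2cb stand apart from their list.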

How the data were processed

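RNA-seq of 4 libraries of SAG-treated primary MEFs was used, 1 library per group. Per the submitters' processing notes, the tools were cutadapt 1.9.1 and HISAT2 2.0.1 and the build GRCm38; not given in the sources used here are the counting program and its annotation. The authors deposited gene-level FPKM, per the file headers. Times gene length in kilobases they sum to 1000000 per library, so they are scaled to assigned fragments. Depth was recovered from genes of at most 200 bases, whose values are whole multiples of 1 fragment, and gave 19.98 to 23.9 units of 1000000 fragments. Gene names came from GENCODE M21.

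Ratios were taken as log2(FPKM + 1), with genes kept at 1 FPKM or more in at least 1 library. Folds carry exact binomial (Clopper-Pearson) intervals on recovered fragments at the 95% level, and sums and within-library ratios a normal approximation on the log scale. With 1 library per group no test was run. Beside the members, the genes named were among the up to 2 largest ratios of each list per comparison, the 3 nearest patterns of members with an absolute ratio of at least 0.5, and Dyrk2 and Gli1; Adcy6, Gpr161, Akap12, the overlapping or related genes and the markers given as below 0.1 FPKM in all libraries were named outside this rule, after their values were seen. The members and lists were chosen with earlier results of these data known. The ratio script was tested on simulated data. The alternatives were other pseudocounts, scalings, filters and protein-coding genes only. Analyses used Python 3.11.15, numpy 2.4.6, pandas 2.3.3 and scipy 1.17.1.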

Additional observations from a re-analysis of the deposited data

Results flagged for a closer look

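Prkar2a, a type II regulatory subunit, lay on opposite sides of its control in the knockout and the siRNA comparison. Its log2 ratio of FPKM + 1 was -0.24 for Dyrk2-KO over WT and 0.13 for siDyrk2 over siNeg, a difference of -0.37. On the log2 fold of FPKM the difference was -0.40 (-0.52 to -0.28), an interval for counting error only. With 1 library per group the difference was not tested.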

How the results depend on the processing

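No ratio of a PKA gene that lay away from 0 changed sign under any alternative tried. Each shift was set against the distance from the centre of the ratio's log2 counting interval to its ends. A pseudocount of 0.1 FPKM, median-ratio scaling and scaling to protein-coding fragments each shifted all 24 ratios of the 8 genes by at most that distance. A pseudocount of 5 FPKM did so for 20 of 24. A shift of that size can still leave a ratio outside its interval. The sign changed only for ratios near 0: Prkacb for Dyrk2-KO over WT under both scalings, and Prkar1a for siDyrk2 over siNeg under median-ratio scaling. With a pseudocount of 5 FPKM, 0 members were 1.5-fold apart for siDyrk2 over siNeg and 0 for siNeg over WT, against 1 and 2.

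The counts over all genes depended on the low-expressed genes. For Dyrk2-KO over WT, 851 genes were 1.5-fold apart, 402 with a filter of 5 FPKM, 1480 with a pseudocount of 0.1 and 202 with 5. For siDyrk2 over siNeg 835 were, 438 with that filter, 511 among protein-coding genes, 1493 with a pseudocount of 0.1 and 216 with 5. For siNeg over WT 486 were, 210 with the filter, 227 among protein-coding genes, 1093 with a pseudocount of 0.1 and 77 with 5. At 2-fold the counts in the same order (as reported, filter, protein-coding, 0.1, 5) were 228, 103, 112, 608 and 22 for Dyrk2-KO over WT, 198, 85, 86, 506 and 33 for siDyrk2 over siNeg, and 119, 32, 17, 340 and 11 for siNeg over WT.

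Without division by length the regulatory to catalytic ratio was 2.15 in Dyrk2-KO cells against 2.12 in WT cells, and 3.58 in siDyrk2 cells against 2.60 in siNeg cells. The Prkacb share of catalytic RNA was then 30.5% to 56.9%, against 11.1% to 27.2% per length. No paired analysis was possible because each group is 1 library. Replicate spread, culture and passage are not measured here, and counting error sets only the lower limit of the error.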
